A study of Mus musculus with 35 samples.

Results

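The comparison described here is between OT-I CTLs kept for 24 h at pH 6.6 and at pH 7.4, both with IL-2. CTLs are cytotoxic CD8+ T lymphocytes, and those of OT-I mice bear a transgenic T cell receptor for a peptide of ovalbumin. Libraries were taken by the pH and the IL-2 given in their labels, which put 5 libraries in each group and 10 of the 35 libraries of the study in the comparison, and every gene counted was considered. Both groups came from CD8+ T cells of mouse spleen that had been primed with antibodies to CD3 and CD28 and expanded with IL-2 before the pH was set, and both were cultured in low-glucose DMEM with 10% serum and 200 IU/mL IL-2. They therefore differed in the acidity of the medium, which was set with hydrochloric acid, and not in the dose of the cytokine. The study reports that low pH modestly weakens both the binding of the cytokine to its receptor and the signaling downstream of that receptor. The cytokine signal that reached the cells may thus have differed between the groups, and its part in the results below was not tested. Dead cells had been removed on Ficoll before RNA was extracted, so the libraries describe the cells left after that step.

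Background to the comparison is as follows. IL-2 drives the growth, division and killing function of CTLs through a receptor of an alpha, a beta and a common gamma chain, the kinases JAK1 and JAK3 and the transcription factor STAT5, together with the PI3K and AKT pathway. Strong IL-2 signals favour effector genes such as granzyme B and perforin, while weak signals leave active the FOXO factors that hold up genes of homing, survival and quiescence. The medium around tumours is often acidic, and the study asked what such acidity does to CTLs that receive IL-2. The gene programs beyond c-Myc and mTORC1 are described below.

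The total count on genes was 23505962 to 30734999 per library at pH 7.4 and 16721319 to 25622491 at pH 6.6. Reads that fell outside annotated genes made up 3.91% to 5.18% of all reads tallied at pH 7.4 and 7.33% to 8.83% at pH 6.6, so these shares did not overlap. Their part in the results below was not tested. The 8 markers of CD8+ T cells were all detected, with summed levels of 3466 to 3947 counts per 1000000 of the TMM-adjusted library size (CPM) at pH 7.4 and 3769 to 4473 CPM at pH 6.6. Of the markers of other cell types, Ms4a1, Pax5, Csf1r, Adgre1, Lyz2, S100a8, Elane, Ncr1, Siglech and the erythroid genes were below 1 CPM in 10 of 10 libraries. Some genes listed for other lineages were detected without those defining markers, and the part of such cells in the results was not tested. Ighm, which encodes an immunoglobulin heavy chain constant region, was at 59.2 to 149.7 CPM at pH 7.4 and 184 to 405 CPM at pH 6.6, and Zbtb46, a transcription factor used as a dendritic cell marker, was at 0.246 to 0.452 CPM at pH 7.4 and 12.6 to 23.3 CPM at pH 6.6. Cd68, a lysosomal protein listed for macrophages, was at 4.95 to 10.6 CPM at pH 7.4 and 16 to 30.4 CPM at pH 6.6, and Klrb1c, an NK cell receptor, at 43 to 45.8 CPM at pH 7.4 and 19.4 to 33.2 CPM at pH 6.6. Cd79b, listed for B cells, was at 1.85 to 2.44 CPM at pH 7.4 and 1.28 to 1.85 CPM at pH 6.6. Foxp3 was at 0.527 to 1.19 CPM at pH 7.4 and 0.32 to 0.458 CPM at pH 6.6. The groups overlapped for Zbtb7b, at 15.9 to 32.4 and 17.4 to 30.8 CPM, and Pecam1, at 25.2 to 35.2 and 29.5 to 39.4 CPM. Epcam, Cd4 and Itgam had higher medians at pH 6.6 and Ly6g a lower one, each at 10.8 CPM or less. The library of replicate 1 at pH 7.4 stood apart from the other 4 of its group for genes of glycolysis, sterol synthesis and interferon response, and values with and without it are given beside those results.

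Of 13819 genes tested, 4889 were higher at pH 6.6 (35.4%) and 5650 lower (40.9%) at an adjusted p under 0.05 in edgeR's quasi-likelihood test. With a change of at least 2-fold required as well, 2134 genes were higher (15.4%) and 2619 lower (19%). Over all genes the log2 fold change had a median of -0.07, which lay between -0.09 and -0.05 in the 5 replicate pairs. Because most genes passed, counts for a gene list are read here against these shares, and its median against -0.07. Every library at pH 6.6 was below every library at pH 7.4 for 4569 genes and above for 3616. Groups that do not overlap were therefore common. In bulk RNA, fewer cells of a kind and less RNA per cell cannot be told apart. All values are relative to the total of each library, so a change in RNA per cell shared by all genes would not show. The study reports smaller cells with less protein at low pH, and RNA per cell is not given in the sources used here. A rise or fall is therefore a relative one, and the other scalings tried share this limit. The labels describe biological replicates but do not say which cultures they came from, so the p-values measure the spread between these samples.

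**Figure D1:**
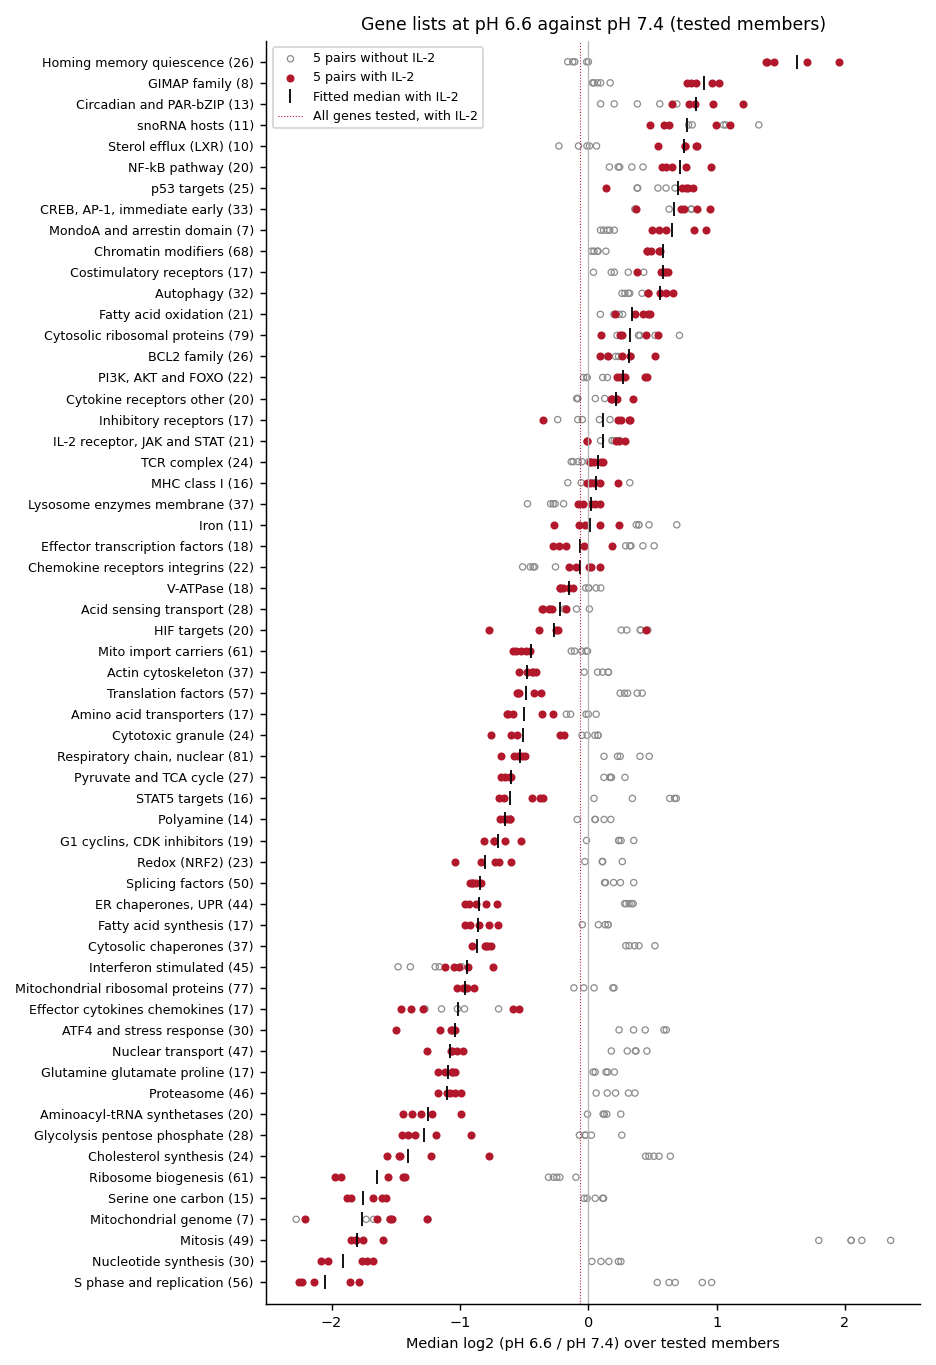
Median log2 ratio of pH 6.6 to pH 7.4 over the tested members of 59 gene lists (number tested in brackets), with each filled red point 1 replicate pair with IL-2, each open point 1 pair without IL-2, a black tick for the fitted median with IL-2 and a dotted line for the median of all genes with IL-2. The homing, memory and quiescence list lies highest, from 1.38 to 1.95 in 5 pairs, and the S phase and replication list lowest, from -2.25 to -1.79.

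The strip plot of list medians shows the breadth of the change. Of 59 lists, 36 had a median below 0 and 23 a median above 0. The lists were chosen with earlier results of these data known, so their ranks are a description. Lists of DNA replication, nucleotide synthesis, mitosis, the mitochondrial genome, serine and one-carbon metabolism, ribosome biogenesis, sterol synthesis and glycolysis had the lowest medians. The highest medians were those of homing, memory and quiescence genes, the GIMAP family and circadian genes. Lists that were near the median of all genes included T cell receptor signaling (0.08), lysosomal enzymes (0.02), the V-ATPase (-0.15) and MHC class I (0.06).

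The 10 largest rises among genes past the threshold, of the same sign in 5 of 5 pairs and with log2 CPM averaging 3 or more over the 10 libraries, are described first, with log2FC standing for the log2 fold change from pH 7.4 to pH 6.6. Coq8a (ENSMUSG00000026489, chr1:180165238-180199602, minus strand), a kinase-like protein of coenzyme Q synthesis in mitochondria, rose most of these, with a log2 fold change of 4.45 (SE 0.25, adjusted p = 4.54e-16). In replicates 1 to 5 it was at 3.33, 2.33, 2.59, 2.65 and 2.53 CPM at pH 7.4 and at 27.2, 75.8, 70.4, 68.7 and 65.8 CPM at pH 6.6, and the groups did not overlap. Klhl24, an adaptor of a ubiquitin ligase, rose by 4.42 log2 units (SE 0.16), and Fbxo32, a ubiquitin ligase subunit known from muscle atrophy, by 3.72 log2 units (SE 0.13). Ikzf2, the transcription factor Helios, was at 8.96, 7.05, 6.24, 4.84 and 4.38 CPM at pH 7.4 and at 95.7, 137, 149, 79.4 and 91.5 CPM at pH 6.6 in replicates 1 to 5, a log2 fold change of 4.13 (SE 0.19, adjusted p = 8.35e-19). Bcl6 (ENSMUSG00000022508, chr16:23965052-23988852, minus strand), a repressor needed for memory and follicular T cells, was at 3.61, 3.16, 3.0, 2.4 and 1.99 CPM at pH 7.4 and at 41.4, 60.8, 61.1, 39.5 and 43.7 CPM at pH 6.6. Its log2 fold change was 4.12 (SE 0.16, adjusted p = 9.52e-21), so that the highest library at pH 7.4 was far below the lowest at pH 6.6.

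Tsc22d3, which encodes the glucocorticoid-induced leucine zipper and is a FOXO target, rose from 12.9 ± 4.48 to 177 ± 33.5 CPM (SD, n = 5), a log2 fold change of 3.78 (SE 0.17). Tnfaip3, the A20 protein that restrains NF-kB, rose from 44.6 ± 6.25 to 627 ± 109 CPM (SD, n = 5), or 3.83 (SE 0.16) on the log2 scale. The other genes among the 10 largest rises were Bend4 (log2FC 4.33), Arl5c (log2FC 3.82) and Dtx4 (log2FC 3.63), an E3 ligase that acts on Notch.

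Genes of lower level, such as Zbtb46 above, moved by more. The 10 largest falls under the same conditions included several metabolic enzymes. Shmt1 (ENSMUSG00000020534, chr11:60788104-60811718, minus strand), the cytosolic serine hydroxymethyltransferase, was at 102, 99.4, 93.1, 99.3 and 98.2 CPM at pH 7.4 and at 5.55, 3.6, 4.28, 7.65 and 8.33 CPM at pH 6.6 in replicates 1 to 5, a log2 fold change of -4.07 (SE 0.19, adjusted p = 7.65e-19). Bcat1, which starts the breakdown of branched-chain amino acids in the cytosol, was at 33.9, 45.7, 40.0, 49 and 51.4 CPM at pH 7.4 and at 3.47, 2.08, 1.8, 3.95 and 3.54 CPM at pH 6.6, or -3.91 (SE 0.15, adjusted p = 1.55e-20) on the log2 scale. The groups were far apart for both enzymes. Gcat, an enzyme of threonine breakdown, had a log2 fold change of -3.90 (SE 0.19), but 47.5% of its exon sequence overlaps a same-strand neighbour, which makes its level uncertain. Fabp5, which carries fatty acids, went from 48.1 ± 7.65 to 3.44 ± 0.815 CPM (SD, n = 5), a log2 fold change of -3.81 (SE 0.14). Nefh, a neurofilament subunit, had the largest fall of these, a log2 fold change of -4.12 (SE 0.16, adjusted p = 8.68e-21). The remaining falls of the 10 were in Sdf2l1 (log2FC -4.06), a protein of the endoplasmic reticulum, BC035044 (log2FC -3.87), Tpst1 (log2FC -3.71), Ak4 (log2FC -3.56) and Srm (log2FC -3.55), the spermidine synthase. Ak4, a mitochondrial adenylate kinase, was at 10.1, 45, 45.3, 52.4 and 74.3 CPM in the 5 libraries at pH 7.4, where replicate 1 was lowest, and its log2 fold change without replicate 1 was -3.75.

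**Figure D2:**
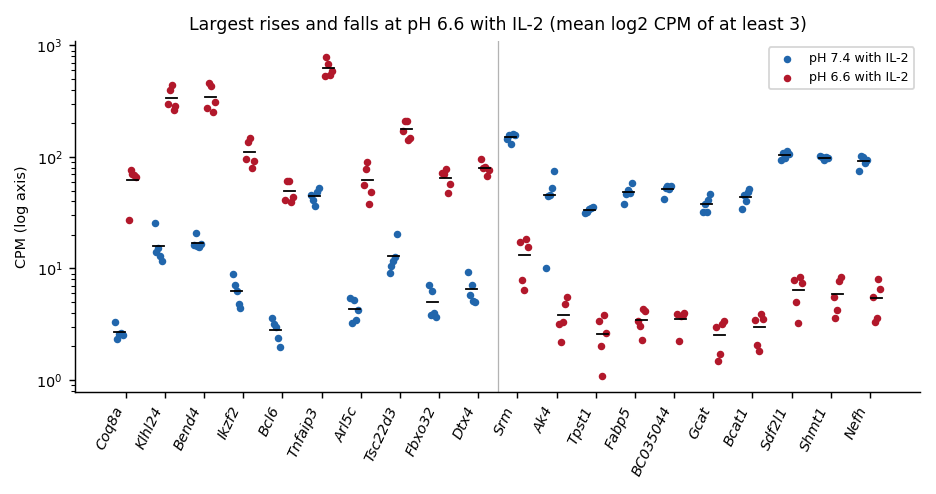
CPM on a log axis for the 10 genes with the largest rises (left of the line) and the 10 with the largest falls (right) at pH 6.6 with IL-2 among genes whose log2 CPM averaged 3 or more, with a point for each of 5 libraries and a bar for the mean. For each gene the groups do not overlap, which their choice as the largest changes favours. The library of replicate 1 at pH 7.4 lies below the others for Ak4, at 10.1 CPM.

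The IL-2 receptor and its signaling chain were looked at next. Il2ra (ENSMUSG00000026770, chr2:11642807-11693193, plus strand), the high-affinity alpha chain, was at 539, 544, 565, 542 and 555 CPM at pH 7.4 and at 387, 350.3, 394, 334 and 342 CPM at pH 6.6 in replicates 1 to 5, and every library at pH 6.6 was below every library at pH 7.4. Its log2 fold change was -0.61 (SE 0.11, adjusted p = 4.65e-06). Il2rb, the beta chain, was at 869.8, 1211, 1057, 1164 and 1028 CPM at pH 7.4 and at 558, 609, 504, 729.7 and 680.2 CPM at pH 6.6, a log2 fold change of -0.79 (SE 0.10, adjusted p = 8.43e-09), again without overlap. Il2rg, the common gamma chain, had a log2 fold change of -0.06 (SE 0.08, adjusted p = 0.506), with overlapping groups, and 30.5% of its exon sequence overlaps a same-strand neighbour.

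The kinases and STAT factors downstream of the receptor did not follow its alpha and beta chains. Jak1 rose from 840.2 ± 67.6 to 1687 ± 251 CPM (SD, n = 5), a log2 fold change of 1.00 (SE 0.07, adjusted p = 3.93e-15), and Jak3 by 0.67 log2 units (SE 0.13). Stat5b rose by 0.56 log2 units (SE 0.07). Stat5a, which shares target genes with Stat5b, had a log2 fold change of 0.12 that did not pass (adjusted p = 0.231), but passed under upper quartile scaling (0.25), in a fit of only the groups compared (0.18) and without replicate 1 (0.22). Stat4, which signals for IL-12, rose by 1.71 log2 units (SE 0.09), and 26.7% of its exon sequence overlaps a same-strand neighbour. Ptpn6, the phosphatase SHP-1, had a log2 fold change of -1.04 (SE 0.11). Of the 21 genes of this list, 10 were higher and 7 lower, with a median of 0.12 that ranged from -0.011 to 0.28 in the 5 pairs.

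Targets of STAT5 moved in different directions. Among 16 such genes 10 were lower and 4 higher, and the median was -0.61 (5 pairs, -0.70 to -0.35). Cish, a feedback inhibitor that STAT5 induces, was at 423, 423, 413, 443 and 407 CPM at pH 7.4 and at 357, 355, 305, 519 and 472 CPM at pH 6.6 in replicates 1 to 5. Its log2 fold change of -0.09 did not pass (adjusted p = 0.62), and the groups overlapped. Socs1, another feedback inhibitor, had a log2 fold change of -0.84 (SE 0.16), whereas Socs3 rose by 2.01 log2 units (SE 0.19) and the kinase gene Pim1 by 0.85 log2 units (SE 0.08). The largest falls were those of Lta, which encodes lymphotoxin alpha (log2FC -2.55, SE 0.12), and of the TNF receptor family genes Tnfrsf8 (log2FC -2.17, SE 0.18) and Tnfrsf9 (log2FC -1.64, SE 0.14), which encode CD30 and 4-1BB.

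Killing genes were lower in acid, some of them steeply. Gzmb (ENSMUSG00000015437, chr14:56258838-56262260, minus strand), granzyme B, was at 7211, 7608, 6696, 8458 and 9009.6 CPM at pH 7.4 and at 976, 529, 482, 1215 and 1023 CPM at pH 6.6 in replicates 1 to 5, a 9.62-fold difference of the fitted means with a log2 fold change of -3.27 (SE 0.18, adjusted p = 5.08e-17). Prf1, the pore-forming protein perforin, was at 164, 412, 260.2, 562 and 501 CPM at pH 7.4 and at 79.7, 73.5, 43.5, 155 and 111 CPM at pH 6.6. Its log2 fold change was -2.01 (SE 0.17, adjusted p = 1.68e-12), and although the libraries varied, the highest at pH 6.6 was below the lowest at pH 7.4. Gzme (log2FC -2.71) and Gzmd (log2FC -2.11) fell as well, but they belong to a cluster of near-identical granzymes, with 79.4% and 78.1% of their 50-base windows unique, so their levels are uncertain. Not every gene of the granule list was lower. Of 24 genes, 13 were lower, 8 of them at least 2-fold, and 6 were higher. Fasl, the death ligand, rose by 0.58 log2 units (SE 0.12), and Srgn, the proteoglycan that packs granzymes, by 0.48 log2 units (SE 0.09).

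**Figure D3:**
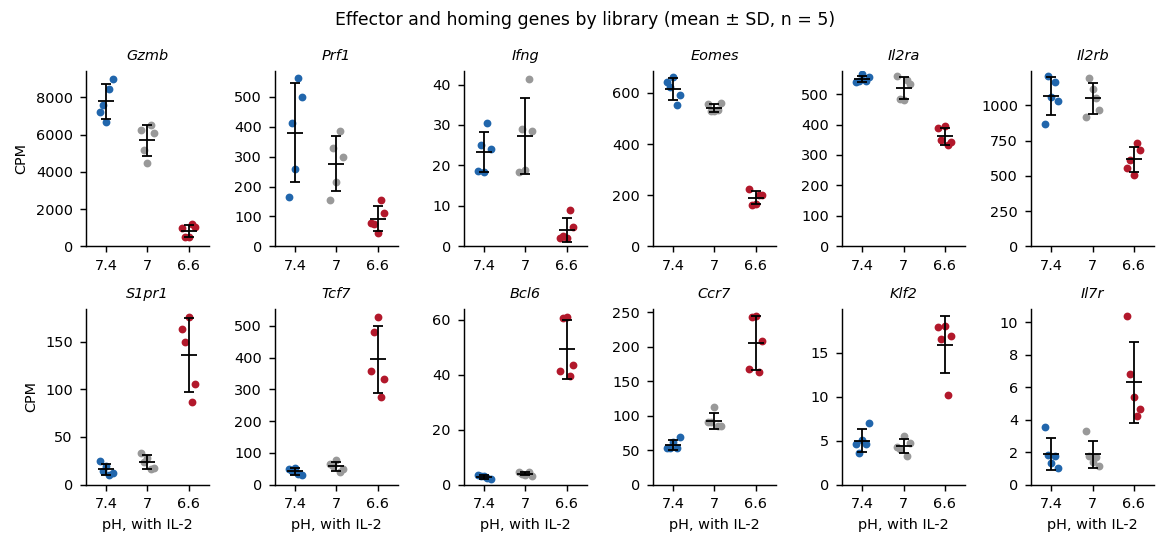
CPM by library for 12 genes at pH 7.4, pH 7 and pH 6.6, all with IL-2, on linear axes from 0, with a point for each of 5 libraries and black marks for the mean and SD. Gzmb, Prf1, Ifng, Eomes, Il2ra and Il2rb are lower at pH 6.6, and S1pr1, Tcf7, Bcl6, Ccr7, Klf2 and Il7r higher.

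Cytokine and chemokine genes were lower more often than higher. Ifng, interferon gamma, was at 18.5, 25.2, 18.4, 30.5 and 24.1 CPM at pH 7.4 and at 2.14, 2.6, 1.97, 9.09 and 4.66 CPM at pH 6.6 in replicates 1 to 5, a log2 fold change of -2.61 (SE 0.27, adjusted p = 2.71e-10), and 25.9% of its exon sequence overlaps a same-strand neighbour. The highest library at pH 6.6 stayed below the lowest at pH 7.4. Tnfsf11, which encodes RANKL, fell by 1.56 on the log2 scale. Other members rose, among them Ccl5, the chemokine RANTES, from 16.1 ± 3.16 to 69.3 ± 11.6 CPM (SD, n = 5), and Ltb, lymphotoxin beta, by 1.08 log2 units (SE 0.14). In this list 10 of 17 genes tested were lower and 4 higher.

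Transcription factors of effector cells went both ways. Eomes, which drives effector and memory CD8+ genes, was at 641, 623, 662, 552 and 590.5 CPM at pH 7.4 and at 224, 161, 167, 201 and 199.5 CPM at pH 6.6 in replicates 1 to 5, a log2 fold change of -1.69 (SE 0.09, adjusted p = 2.64e-17). Irf8 (log2FC -2.17, SE 0.15) and Zbtb32 (log2FC -2.09, SE 0.14) fell as well. Rora, a nuclear receptor, rose by 2.09 log2 units (SE 0.17). Of 18 factors, 8 were lower and 6 higher, and their median of -0.06 changed sign under several alternatives.

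Receptors that restrain or help T cells also split. Ctla4, an inhibitory receptor that competes with CD28, was at 35.2, 44.6, 54.7, 56.9 and 79.7 CPM at pH 7.4 and at 331, 427, 512, 318 and 339 CPM at pH 6.6 in replicates 1 to 5, a log2 fold change of 2.84 (SE 0.18, adjusted p = 5.77e-15). Every library at pH 6.6 was above every library at pH 7.4. Tigit rose by 1.88 log2 units (SE 0.10). In contrast, Lair1 (log2FC -2.05, SE 0.15), Cd160 (log2FC -1.47, SE 0.12) and Havcr2 (log2FC -1.14, SE 0.13), which encodes TIM-3, fell. The list of inhibitory receptors had 8 genes higher, 5 of them at least 2-fold, and 8 lower, 5 of them at least 2-fold. Costimulatory receptors were mostly higher, with 13 of 17 tested, among them Cd27 (log2FC 1.16, SE 0.11) and Cd6 (log2FC 0.75, SE 0.08), while Slamf7 had a log2 fold change of -1.49 (SE 0.11).

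Genes that keep T cells in circulation and in a resting or memory state had the highest median of the 59 lists. Bcl6 and Tsc22d3, which were among the 10 largest rises, belong to this list, so its rank is not independent of the choice of members. Of 26 genes tested, 24 were higher, 20 of them at least 2-fold, and 2 were lower, and the median was 1.62 (5 pairs, 1.38 to 1.95). Tcf7 (ENSMUSG00000000782, chr11:52252371-52283014, minus strand), the factor TCF-1 of memory and stem-like T cells, was at 50.4, 43.8, 53.5, 32.2 and 29.9 CPM at pH 7.4 and at 356, 481, 529, 275 and 332 CPM at pH 6.6 in replicates 1 to 5, a log2 fold change of 3.23 (SE 0.10, adjusted p = 6.19e-23). S1pr1 (ENSMUSG00000045092, chr3:115710433-115715072, minus strand), the receptor by which T cells leave lymph nodes, was at 24.3, 14.1, 19.8, 10.3 and 11.9 CPM at pH 7.4 and at 163, 149, 176, 86.3 and 105 CPM at pH 6.6, or 3.10 (SE 0.13, adjusted p = 3.07e-20) on the log2 scale. For both genes the libraries at pH 6.6 were all above those at pH 7.4.

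Other members behaved alike at lower levels or by smaller steps. Ccr7, the receptor for entry into lymph nodes, was at 53.1, 53.1, 61.8, 52.6 and 68.4 CPM at pH 7.4 and at 167, 243, 245, 163 and 209 CPM at pH 6.6 in replicates 1 to 5 (log2FC 1.83, SE 0.20, adjusted p = 2.3e-09). Klf2, the factor that switches on S1pr1, was at 4.66, 3.61, 5.09, 4.63 and 7.04 CPM at pH 7.4 and at 17.9, 16.6, 18, 10.2 and 16.9 CPM at pH 6.6 (log2FC 1.66, SE 0.16, adjusted p = 2.55e-11), where replicate 4 was the lowest at pH 6.6. Il7r, the receptor chain for the survival cytokine IL-7, was at 3.57, 1.81, 1.31, 1.78 and 1.04 CPM at pH 7.4 and at 10.3, 6.8, 5.41, 4.23 and 4.62 CPM at pH 6.6 (log2FC 1.72, SE 0.19, adjusted p = 1.08e-09). The groups did not overlap for these 3 genes, and the levels of Klf2 and Il7r stayed low at both pH values. Of the 2 members that were lower, Id3, an inhibitor of E proteins that marks memory precursors, had a log2 fold change of -1.20 (SE 0.25).

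Genes around PI3K, AKT and FOXO were higher more often than lower, 11 against 6 of 22, with a median of 0.27. Pik3ip1, which restrains PI3K and is also in the quiescence list, rose from 18 ± 1.58 to 166 ± 22 CPM (SD, n = 5), a log2 fold change of 3.21 (SE 0.10). Irs2, an adaptor of insulin receptor signaling and a FOXO target, rose by 3.59 log2 units (SE 0.22). Akt1 had a log2 fold change of -1.02 (SE 0.10). All 8 GIMAP genes, small GTPases of lymphocyte survival, were tested and 7 were higher, with a median of 0.90. Gimap3 (log2FC 1.74, SE 0.07) and Gimap6 (log2FC 1.73, SE 0.08) rose most.

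Adhesion and cytokine receptors showed single large changes. Itgb3, the integrin beta 3 chain, was at 33.7, 71.9, 66.1, 78.4 and 76.1 CPM at pH 7.4 and at 309, 526, 449.9, 402 and 397 CPM at pH 6.6 in replicates 1 to 5 (log2FC 2.70, SE 0.12, adjusted p = 1.69e-19), with replicate 1 lowest at pH 7.4. Itga4, the integrin alpha 4 chain, rose by 2.38 log2 units (SE 0.21) and Cxcr4, the receptor for CXCL12, by 2.16 log2 units (SE 0.47), whereas the inflammatory chemokine receptor gene Cxcr3 (log2FC -1.12, SE 0.11) fell. Both interferon gamma receptor chains rose, Ifngr1 from 392 ± 18.9 to 1514 ± 159 CPM (SD, n = 5) and Ifngr2 by 1.8 log2 units (SE 0.12), as did Ifnar1 (log2FC 1.34, SE 0.08). Il12rb1, a chain of the IL-12 receptor, had a log2 fold change of -1.56 (SE 0.12). In T cell receptor signaling, 9 of 24 genes were higher, among them the phosphatase genes Ptpn22 (log2FC 1.39, SE 0.08) and Ptprc (log2FC 0.84, SE 0.09), and 6 lower.

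Genes of the NF-kB pathway were mostly higher, 16 of 20, 9 of them at least 2-fold, with a median of 0.72. Nfkbia, the inhibitor I kappa B alpha that NF-kB itself induces, was at 26.9, 17, 18.6, 20.8 and 18.9 CPM at pH 7.4 and at 100.1, 266, 199, 192 and 168 CPM at pH 6.6 in replicates 1 to 5 (log2FC 3.15, SE 0.24, adjusted p = 9.04e-13). The adaptor gene Traf1 rose by 2.0 log2 units (SE 0.09). Cyclic AMP and immediate early genes gave 20 higher and 2 lower of 33. The phosphodiesterases that break down cyclic AMP rose together, Pde4b from 21 ± 3.86 to 149 ± 16.9 CPM (SD, n = 5) and Pde4d from 27.8 ± 2.0 to 186 ± 29.1 CPM (SD, n = 5). Fosl2, an AP-1 subunit, rose by 2.32 log2 units (SE 0.10), while Jund had a log2 fold change of -1.16 (SE 0.15) with 52.6% of its exon bases in a gene on the opposite strand.

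Of the genes of the BCL2 family and cell death, 13 of 26 were higher and 10 lower. Bcl2l11, the BH3-only protein BIM that rises when lymphocytes lose cytokine, was at 169, 118, 129.8, 104 and 93.9 CPM at pH 7.4 and at 967, 1204, 1229.7, 785 and 867 CPM at pH 6.6 in replicates 1 to 5 (log2FC 3.04, SE 0.13, adjusted p = 1.54e-19). Bbc3, the BH3-only protein PUMA, was at 9.53, 8.23, 8.17, 11.3 and 10.9 CPM at pH 7.4 and at 60.7, 91.7, 61.4, 62.6 and 65.4 CPM at pH 6.6 (log2FC 2.84, SE 0.19, adjusted p = 9.02e-15). Neither gene had overlapping groups. Birc2, an inhibitor of apoptosis, rose by 2.40 log2 units (SE 0.10), whereas Bid (log2FC -1.99, SE 0.10) and the mitophagy receptor gene Bnip3 (log2FC -2.19, SE 0.22) fell. Of the 25 p53 targets, 17 were higher and 2 lower, with Gadd45b (log2FC 2.84, SE 0.20) and Plk2 (log2FC 2.68, SE 0.19) among the largest rises beside Bbc3. In replicate 1 the median of this list was 0.14, and it was 0.81 in the highest pair.

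Circadian and chromatin genes rose in part. The clock genes Per1 (log2FC 2.24, SE 0.18) and Nr1d2 (log2FC 2.20, SE 0.14) and the PAR-bZIP factor Tef (log2FC 1.96, SE 0.08) rose, and 10 of 13 genes of their list were higher. Among 68 chromatin modifiers 41 were higher, 20 of them at least 2-fold, and 20 lower. Hdac5 (log2FC 2.88, SE 0.15), Kdm7a (log2FC 2.68, SE 0.14) and Ezh1 (log2FC 2.32, SE 0.07), the Polycomb methyltransferase of resting cells, rose, while Kat2a (log2FC -1.91, SE 0.10) and the maintenance methyltransferase gene Dnmt1 (log2FC -1.40, SE 0.10) fell.

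Division genes fell almost without exception. All 56 genes of S phase and replication were lower, 50 of them at least 2-fold, with a median of -2.05 (5 pairs, -2.25 to -1.79). Orc1, a subunit of the origin recognition complex, was at 41, 49.1, 51, 43.6 and 44.7 CPM at pH 7.4 and at 3.87, 3.32, 2.39, 5.26 and 5.12 CPM at pH 6.6 in replicates 1 to 5 (log2FC -3.52, SE 0.18, adjusted p = 6.62e-18), without overlap. Gins1, part of the replicative helicase, had a log2 fold change of -2.84 (SE 0.17), and Tyms, the thymidylate synthase, of -3.39 (SE 0.15). Of 49 genes of mitosis, 46 were lower, 44 of them at least 2-fold, and 2 higher. Cdk1, the kinase that starts mitosis, was at 248, 271, 289, 265 and 294 CPM at pH 7.4 and at 41.5, 46.8, 51, 53.5 and 50.7 CPM at pH 6.6 (log2FC -2.48, SE 0.18, adjusted p = 1.09e-13), and Plk1 (log2FC -2.43, SE 0.15) and Kif20a (log2FC -2.45, SE 0.16) fell alike.

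The 2 mitosis genes that rose were Cenpa, the centromeric histone (log2FC 0.97, SE 0.13), and Pttg1, securin (log2FC 0.79, SE 0.10). Regulators of G1 moved both ways. Cdkn1b, the inhibitor p27 that FOXO factors induce, was at 109, 79.3, 87.3, 75.3 and 75.2 CPM at pH 7.4 and at 534, 601, 697, 369 and 409.9 CPM at pH 6.6 in replicates 1 to 5 (log2FC 2.62, SE 0.19, adjusted p = 7.62e-14), and Ccng2, a cyclin of quiescence, rose by 1.59 log2 units (SE 0.27). Cdk4 (log2FC -1.8, SE 0.09) and Cdk2 (log2FC -1.37, SE 0.12) fell, and so did the inhibitor gene Cdkn2a (log2FC -3.03, SE 0.14).

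**Figure D4:**
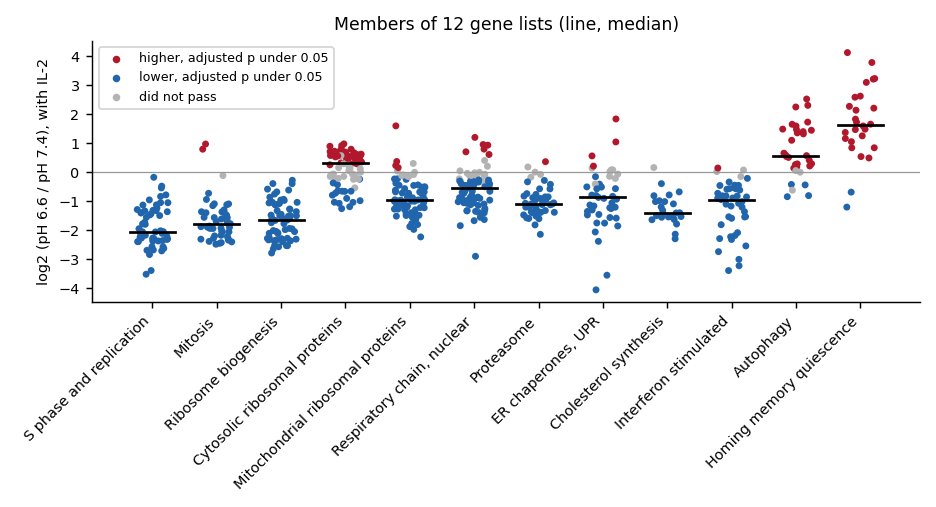
Log2 ratio of pH 6.6 to pH 7.4 with IL-2 for each tested member of 12 gene lists, coloured red where higher and blue where lower at an adjusted p under 0.05 and grey where it did not pass, with a line at the median. Ribosome biogenesis genes lie below 0 without exception, while cytosolic ribosomal proteins centre at 0.32.

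Promoters of these genes carry short motifs known from each pathway, and for 3 lists that fell, 3 promoters each are shown with the motif in place. RefSeq promoter windows of 300 bases (250 before and 50 after the start, GRCm38) were found for 9977 of the genes tested and searched on both strands. A gene was counted if any of its windows held the motif, so genes with several windows had more chances. The cell cycle homology region TTTGAA was present in 31 of 42 (73.8%) of the mitosis genes with a window and in 14.4% of all such genes. In the stretches below, taken before the start for members with large falls that lay outside annotated exons, TTTGAA or its complement is in capitals.
Cdk1 (chr10:69352941-69353020, minus strand): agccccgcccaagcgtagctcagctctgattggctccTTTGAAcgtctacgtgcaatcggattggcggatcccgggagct
Kif2c (chr4:117178833-117178912, minus strand): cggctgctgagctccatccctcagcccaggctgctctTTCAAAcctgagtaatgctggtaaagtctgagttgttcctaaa
Ccnb2 (chr9:70421679-70421758, minus strand): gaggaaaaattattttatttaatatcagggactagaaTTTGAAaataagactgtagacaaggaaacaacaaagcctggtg

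Cdk1, Kif2c (log2FC -2.06, SE 0.19), a kinesin of the spindle, and Ccnb2 (log2FC -2.06, SE 0.20), a mitotic cyclin, all fell. The E2F letters TTCCCGC were in 16 of 44 (36.4%) of the S phase genes with a window against 9.92% of all. Since the lists hold genes that are known targets of the factors of each pathway, such shares are not independent of the choice of members. The same holds for the motif shares of the lists further below.

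Ribosome production and the ribosome itself parted. All 61 genes of ribosome biogenesis were lower, 50 of them at least 2-fold, with a median of -1.65. Nolc1, a nucleolar phosphoprotein, was at 304, 321, 301, 284 and 296 CPM at pH 7.4 and at 54.1, 38, 34.5, 56.7 and 58.7 CPM at pH 6.6 in replicates 1 to 5 (log2FC -2.65, SE 0.14, adjusted p = 1.52e-17), and Rrp15 (log2FC -2.79, SE 0.13) and Nop16 (log2FC -2.57, SE 0.13) fell as well. The structural proteins of the cytosolic ribosome did not fall as a list. Of 79 tested, 42 were higher, 0 of them at least 2-fold, and 16 lower, with a median of 0.32 (5 pairs, 0.10 to 0.54). Rpl17 (log2FC 0.91, SE 0.31) lay at the upper end and Rpl15 (log2FC -1.26, SE 0.09) and Rpl31 (log2FC -1.19, SE 0.11) at the lower. Fewer than 95% of the 50-base windows were unique for 73 of these 79 genes, and reads with several matches were not counted, so single values are uncertain. Among hosts of small nucleolar RNAs 9 of 11 were higher, with Snhg12 at a log2FC of 1.92, and Snhg17 was lower, at a log2FC of -1.20.

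Lists of translation and nuclear traffic were mostly lower. Of 20 aminoacyl-tRNA synthetases, which load tRNAs with amino acids, 18 were lower and 0 higher, among them Tars (log2FC -1.8, SE 0.06), Wars (log2FC -1.76, SE 0.11) and Iars (log2FC -1.72, SE 0.09). Among 57 translation factors 34 were lower, including Eif5a, from 1537 ± 106 to 378 ± 54.7 CPM (SD, n = 5), and Eef1e1 (log2FC -2.07, SE 0.10), and 11 were higher, including the helicase gene Eif4a2 (log2FC 1.41, SE 0.10). The nuclear transport list had 42 of 47 lower. Ran, the GTPase that gives transport its direction, went from 459.7 ± 15.7 to 85.2 ± 10.3 CPM (SD, n = 5), and its exchange factor Rcc1 had a log2 fold change of -2.45 (SE 0.10). In the splicing list 39 of 50 were lower, among them Hnrnpab (log2FC -2.60, SE 0.10) and the Sm protein genes Snrpd3 (log2FC -2.18, SE 0.09) and Snrpd1 (log2FC -2.14, SE 0.12).

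Nuclear genes of mitochondria were mostly lower. The median was -0.96 for 77 mitochondrial ribosomal proteins (64 lower and 4 higher) and -0.53 for 81 nuclear genes of the respiratory chain (60 lower and 6 higher). Mrpl42 (log2FC -1.97, SE 0.10), Mrps2 (log2FC -1.88, SE 0.10), Atp5g1 (log2FC -1.84, SE 0.10), Ndufa12 (log2FC -1.67, SE 0.12) and Uqcr11 (log2FC -1.63, SE 0.12) fell, whereas Mrpl9 (log2FC 1.60, SE 0.10) and Ndufa6 (log2FC 0.93, SE 0.12) rose. In the import and carrier list the outer-membrane pore gene Tomm40 (log2FC -2.32, SE 0.13), the inner-membrane translocase gene Timm50 (log2FC -2.14, SE 0.09) and the aspartate-glutamate carrier gene Slc25a13 (log2FC -2.38, SE 0.12) fell. Around pyruvate and the TCA cycle 22 of 27 were lower, among them Pcx (log2FC -2.56, SE 0.18), Pdk3 (log2FC -2.16, SE 0.10) and Idh3a (log2FC -2.06, SE 0.09).

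Transcripts of the mitochondrial genome were lower too, as far as they could be counted. Of the 13 protein-coding genes 7 passed the filter on low counts and 6 of these were lower. The complex I subunit mt-Nd1 was at 4539, 3043, 2623, 2944 and 2483 CPM at pH 7.4 and at 681, 515, 589.7, 603 and 577 CPM at pH 6.6 in replicates 1 to 5 (log2FC -2.38, SE 0.14, adjusted p = 5.35e-16), without overlap, and mt-Nd2 (log2FC -2.20, SE 0.15) and mt-Cytb (log2FC -1.76, SE 0.12) also fell. Without IL-2 the log2 fold changes from pH 7.4 to pH 6.6 of these 3 genes were -1.94, -1.91 and -2.05. The libraries were made from polyadenylated RNA, and reads shared with nuclear copies of this genome were not counted.

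Protein folding and degradation genes fell as groups. Of 44 genes of the endoplasmic reticulum and its unfolded protein response, 32 were lower, 19 of them at least 2-fold, and 4 higher (median -0.85). Hspa5, the chaperone BiP, was at 1151, 1408, 1329, 1432 and 1657 CPM at pH 7.4 and at 443, 580.4, 573, 765 and 797 CPM at pH 6.6 in replicates 1 to 5 (log2FC -1.17, SE 0.09, adjusted p = 9.37e-14), and Manf (log2FC -2.06, SE 0.10) and Creld2 (log2FC -1.85, SE 0.09), which respond to reticulum stress, also fell. The sensors went the other way, Ern1, which encodes IRE1, by 1.84 log2 units (SE 0.10), and Eif2ak3, which encodes PERK, by 1.04 log2 units (SE 0.09). The stress element of these promoters is CCAAT and CCACG with 9 bases between. It was in 9 of 34 (26.5%) genes of the list with a window and in 0.2% of all. The element is in capitals, on either strand, in the stretches of 3 members that fell.
Derl3 (chr10:75893212-75893291, plus strand): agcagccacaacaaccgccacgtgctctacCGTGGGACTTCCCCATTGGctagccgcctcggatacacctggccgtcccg
Creld2 (chr15:88819490-88819569, plus strand): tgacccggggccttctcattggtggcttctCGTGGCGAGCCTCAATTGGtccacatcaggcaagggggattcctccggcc
Pdia6 (chr12:17266461-17266540, plus strand): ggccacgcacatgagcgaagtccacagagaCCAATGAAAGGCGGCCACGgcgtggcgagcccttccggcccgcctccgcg

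Derl3, a channel for removing misfolded proteins, had a log2 fold change of -3.55 (SE 0.48), and Pdia6, a disulfide isomerase, of -1.76 (SE 0.07). Of 37 cytosolic chaperones 28 were lower, among them Cct3 (log2FC -1.85, SE 0.08), Hsp90aa1 (log2FC -2.43, SE 0.10) and Hspd1 (log2FC -2.29, SE 0.10), the last 2 with 52.5% and 60.3% unique windows. Dnajb6 (log2FC 2.09, SE 0.09) and Hspa4l (log2FC 1.73, SE 0.12) rose. The proteasome list had 41 of 46 lower and 1 higher (median -1.10), among them Psmg1 (log2FC -2.14, SE 0.14), Psmd1 (log2FC -1.82, SE 0.09) and Psmc5 (log2FC -1.60, SE 0.07).

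Of 17 amino acid carriers 12 were lower and 4 higher. Slc7a5, the LAT1 carrier of large neutral amino acids, was at 302, 304, 266, 295 and 304 CPM at pH 7.4 and at 60.8, 24.8, 22.7, 35.6 and 33.6 CPM at pH 6.6 in replicates 1 to 5 (log2FC -3.13, SE 0.16, adjusted p = 1.01e-17), and Slc7a1, a carrier of cationic amino acids, had a log2 fold change of -2.33 (SE 0.17). Slc38a9, a lysosomal carrier, rose (log2FC 1.32), as did Slc43a2 (log2FC 1.15). Among ATF4 targets and genes of the integrated stress response 20 of 30 were lower and 5 higher. Asns, the asparagine synthetase, had a log2 fold change of -2.40 (SE 0.13) and Shmt2 of -2.69 (SE 0.12), while Ddit3, the stress factor CHOP, rose by 1.77 log2 units (SE 0.16). In serine and one-carbon metabolism 13 of 15 were lower, 12 of them at least 2-fold. Mthfd1, which shuttles folate-bound carbon, was at 184, 216, 192, 183 and 182 CPM at pH 7.4 and at 20.9, 13, 10.8, 26.2 and 25.8 CPM at pH 6.6 (log2FC -3.33, SE 0.15, adjusted p = 7.58e-19).

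Nucleotide synthesis followed the same course, with 29 of 30 genes lower and a median of -1.91. Rrm2, a subunit of ribonucleotide reductase, had a log2 fold change of -2.68 (SE 0.17) and Nme1, a nucleoside diphosphate kinase, of -2.67 (SE 0.15). In glutamine, glutamate and proline metabolism 11 of 17 were lower, among them Got1 (log2FC -1.74, SE 0.08) and Aldh18a1 (log2FC -1.27, SE 0.07). Polyamine synthesis and breakdown parted, since the salvage enzyme gene Mtap (log2FC -2.12, SE 0.10) fell beside Srm, and the catabolic enzyme genes Smox, from 8.19 ± 3.24 to 43.9 ± 7.25 CPM (SD, n = 5), and Sat1 (log2FC 1.06, SE 0.13) rose.

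Glycolysis genes were lower, with 20 of 28 passing, 16 of them at least 2-fold, and 0 higher (median -1.28, or -1.29 without replicate 1). Hk2, hexokinase, was at 130.4, 195, 159.9, 198 and 217 CPM at pH 7.4 and at 27.6, 15.2, 11.8, 28 and 27.1 CPM at pH 6.6 in replicates 1 to 5 (log2FC -3.14, SE 0.23, adjusted p = 3.53e-13), and Tpi1, triosephosphate isomerase, was at 319.7, 764, 788, 909 and 1165 CPM at pH 7.4 and at 67.7, 65.5, 54.4, 107 and 96.7 CPM at pH 6.6 (log2FC -3.31, SE 0.20, adjusted p = 2.44e-15). Slc16a3, the MCT4 carrier that exports lactate with a proton, was at 26.6, 154, 143, 193 and 227 CPM at pH 7.4 and at 11.4, 13.1, 10.0, 18.3 and 16.4 CPM at pH 6.6 (log2FC -3.35, SE 0.38, adjusted p = 8.11e-09). Replicate 1 was the lowest library at pH 7.4 for all 3 genes, and the log2 fold changes without it were -3.24, -3.44 and -3.56. Targets of HIF, the hypoxia factor, were divided, 10 lower and 6 higher of 20, and their median was -0.78 to 0.45 over the pairs, with replicate 1 highest. Egln3, a HIF-induced prolyl hydroxylase, had a log2 fold change of -2.07 (SE 0.32) with overlapping groups, and Mxi1, an antagonist of MYC, rose by 2.14 log2 units (SE 0.22).

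Sterol synthesis was lower almost throughout. Of 24 genes, 23 were lower, 18 of them at least 2-fold, with a median of -1.40 (5 pairs, -1.57 to -0.77), or -1.45 without replicate 1. Cyp51, which demethylates lanosterol, was at 222, 358, 333, 327 and 388 CPM at pH 7.4 and at 79.3, 62.2, 65.7, 77 and 80.1 CPM at pH 6.6 in replicates 1 to 5 (log2FC -2.14, SE 0.13, adjusted p = 9.35e-16). Hmgcs1, HMG-CoA synthase, was at 209.8, 389, 351, 361 and 390.1 CPM at pH 7.4 and at 199, 191, 184, 202 and 193 CPM at pH 6.6 (log2FC -0.78, SE 0.12, adjusted p = 7.24e-07), where replicate 1 was lowest at pH 7.4, and without that replicate its log2 fold change was -0.88. Hsd17b7 (log2FC -2.30, SE 0.24) and Sqle (log2FC -1.64, SE 0.11) fell as well. Without replicate 1 the log2 fold change was -1.77 for Sqle and -2.23 for Cyp51. Genes of sterol efflux and lipid release were higher in 8 of 10, among them Abca7 (log2FC 1.71, SE 0.14) and Npc2 (log2FC 1.25, SE 0.09), while Lpcat3 (log2FC -1.54, SE 0.08) was lower.

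Fatty acid synthesis and oxidation moved apart. In the synthesis list 15 of 17 were lower and 0 higher, among them the desaturase genes Fads2 (log2FC -2.55, SE 0.14) and Scd1 (log2FC -2.47, SE 0.20) and Acsl5 (log2FC -1.82, SE 0.08). In the oxidation list 13 of 21 were higher, 1 of them at least 2-fold, and 4 lower (median 0.34). The higher ones included Cpt1a, the carnitine transferase that admits fatty acids to mitochondria, from 60.0 ± 6.74 to 159 ± 11.6 CPM (SD, n = 5). Iron genes had no common direction, but Tfrc, the transferrin receptor, was at 901, 1208, 1102, 915 and 897 CPM at pH 7.4 and at 129.9, 95, 101, 112 and 119 CPM at pH 6.6 in replicates 1 to 5 (log2FC -3.17, SE 0.14, adjusted p = 1.17e-19), and Fbxl5, which removes iron regulatory proteins when iron is ample, rose by 1.63 log2 units (SE 0.09). Txnip, a glucose-responsive arrestin that limits glucose uptake, was at 444, 465, 481, 472 and 382 CPM at pH 7.4 and at 2116, 2511, 2512, 2317 and 2302 CPM at pH 6.6 (log2FC 2.39, SE 0.09, adjusted p = 9.49e-21). Of the 7 genes of its list 6 were higher, including Mlxip (log2FC 0.98), which encodes MondoA, and Arrdc2 (log2FC 0.65), while Mlx, the gene of the partner of MondoA, had a log2 fold change of -0.85 (SE 0.07). In the redox list 17 of 23 were lower, among them the peroxiredoxin gene Prdx1 (log2FC -2.22, SE 0.13) and the thioredoxin gene Txn1 (log2FC -1.41, SE 0.11), and Prdx6 rose by 1.08 log2 units (SE 0.10).

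Autophagy and lysosomal genes differed as lists. Of 32 autophagy genes 25 were higher, 13 of them at least 2-fold, and 4 lower (median 0.56). Ulk1, the kinase that starts autophagy, was at 25.2, 24.3, 21.4, 24.7 and 21.4 CPM at pH 7.4 and at 78.2, 145, 127, 108 and 104 CPM at pH 6.6 in replicates 1 to 5 (log2FC 2.25, SE 0.12, adjusted p = 8.78e-18), and Atg14 (log2FC 1.73, SE 0.10) and Wipi2 (log2FC 1.65, SE 0.10) rose, whereas Atg3 had a log2 fold change of -0.84 (SE 0.08). Of 37 lysosomal genes 14 were higher, including Cd68 (log2FC 1.44, SE 0.11) and the channel gene Mcoln1 (log2FC 1.09, SE 0.08), and 11 lower, including Gusb (log2FC -1.67, SE 0.10) and Scpep1 (log2FC -1.03, SE 0.08). The V-ATPase, which pumps protons into lysosomes, had 10 of 18 subunits lower and 5 higher, and these moved by less than 2-fold apart from Atp6v1g2 (log2FC 1.35). The catalytic subunit gene Atp6v1a was at a log2FC of -0.88 and Atp6v1d at 0.44.

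Genes that sense or move protons did not share a direction, with 14 of 28 lower and 9 higher. Gpr65, a receptor activated by extracellular protons, was at 81.4, 69.7, 69.3, 62.3 and 61.9 CPM at pH 7.4 and at 36.5, 25.5, 31.7, 29.1 and 30.1 CPM at pH 6.6 in replicates 1 to 5 (log2FC -1.17, SE 0.09, adjusted p = 1.4e-13), and the groups did not overlap. Gpr132, a related receptor, rose by 1.95 log2 units (SE 0.08). The lactate carrier gene Slc16a1 (log2FC -2.73, SE 0.12), which encodes MCT1, and the membrane carbonic anhydrase gene Car12 (log2FC -3.04, SE 0.19) fell, and the anion carrier gene Slc26a11 (log2FC 2.82, SE 0.13) rose.

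Interferon-stimulated genes were lower, with 41 of 45 passing, 21 of them at least 2-fold, and 1 higher (median -0.94, 5 pairs, -1.12 to -0.74, or -0.84 without replicate 1). Iigp1, a GTPase that attacks vacuoles of parasites, was at 1059, 543, 606, 529.5 and 525 CPM at pH 7.4 and at 103, 51.6, 67, 170.1 and 104 CPM at pH 6.6 in replicates 1 to 5 (log2FC -2.74, SE 0.28, adjusted p = 4.65e-10), with replicate 1 highest at pH 7.4 and a log2 fold change without it of -2.48. Usp18, which removes ISG15 from proteins, had a log2 fold change of -2.29 (SE 0.16), or -2.35 without replicate 1, and Rtp4 of -1.81 (SE 0.17). The core of the interferon-stimulated response element is 2 runs of GAAA with 2 bases between. It was in 18 of 30 (60%) genes of the list with a window and in 3.87% of all. It is in capitals, on either strand, in the promoters of 3 members that fell.
Ifit1 (chr19:34640769-34640848, plus strand): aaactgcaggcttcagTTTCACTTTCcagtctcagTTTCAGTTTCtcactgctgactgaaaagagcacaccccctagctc
Isg15 (chr4:156200840-156200919, minus strand): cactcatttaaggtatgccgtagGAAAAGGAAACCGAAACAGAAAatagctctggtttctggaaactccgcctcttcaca
Ifit3 (chr19:34583372-34583451, plus strand): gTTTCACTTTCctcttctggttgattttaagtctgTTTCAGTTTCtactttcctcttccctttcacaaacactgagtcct

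Ifit1, which binds foreign RNA, was at 9.29, 11.5, 10.3, 10.1 and 7.09 CPM at pH 7.4 and at 0.809, 0.56, 0.881, 1.15 and 1.17 CPM at pH 6.6 in replicates 1 to 5 (log2FC -3.39, SE 0.29, adjusted p = 2.81e-12). Isg15, a ubiquitin-like modifier, went from 10.7 ± 0.755 to 1.13 ± 0.268 CPM (SD, n = 5), and Ifit3 had a log2 fold change of -2.23 (SE 0.26). In the MHC class I list the immunoproteasome gene Psmb10 (log2FC -1.12, SE 0.13) and the peptide trimmer gene Erap1 (log2FC -1.09, SE 0.12) fell, and the class Ib genes H2-Q7 (log2FC 1.31, SE 0.09), H2-Q4 (log2FC 1.27, SE 0.09) and H2-Q6 (log2FC 1.04, SE 0.08) rose, although these share sequence with each other (68.0% to 78.2% unique windows). In the actin list 24 of 37 were lower, among them Cfl1 (log2FC -1.64, SE 0.08) and Pfn1 (log2FC -1.43, SE 0.10), which encode cofilin and profilin.

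The same acidity was also applied without IL-2, with its own controls at pH 7.4, which allows the effect of pH to be compared between CTLs with and without the cytokine. The interaction, the log2 effect of pH 6.6 with IL-2 minus that without, passed in edgeR's quasi-likelihood test for 4735 genes in the positive direction (34.3%) and 4526 in the negative (32.8%). The split depended on the scaling, with 5945 positive and 3518 negative under total count scaling and 6132 and 3387 under upper quartile scaling. It passed for the 10 largest rises and 10 largest falls, but these were chosen on the effect with IL-2, which is a term of the interaction, so their values are a description. Bcl6, for example, had a log2 fold change of 4.12 with IL-2 and 0.66 without, an interaction of 3.46 (SE 0.20, adjusted p = 5.73e-16). Bend4 had a log2 fold change of 4.33 with IL-2 and 3.14 without, and had the smallest interaction of the 10 rises, 1.19 (SE 0.18, adjusted p = 8.79e-07). Bcat1 fell with IL-2 and had 0.51 without, an interaction of -4.42 (SE 0.32, adjusted p = 1.12e-13).

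By list, the share of members with an interaction was far from even. In the homing, memory and quiescence list 25 of 26 were positive and 1 negative, and the median without IL-2 was -0.06. In S phase and replication 56 of 56 were negative, with a median of 0.71 without IL-2, and in mitosis 48 of 49, with 2.06. Sterol synthesis had 24 of 24 negative and 0.63 without IL-2, and ribosome biogenesis 61 of 61 negative and -0.22. Interferon-stimulated genes were unlike these, since 19 of 45 were positive and 6 negative, and their median was -1.26 without IL-2 against -0.94 with it. Autophagy genes had a median of 0.28 without IL-2 and 0.56 with it.

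**Figure D5:**
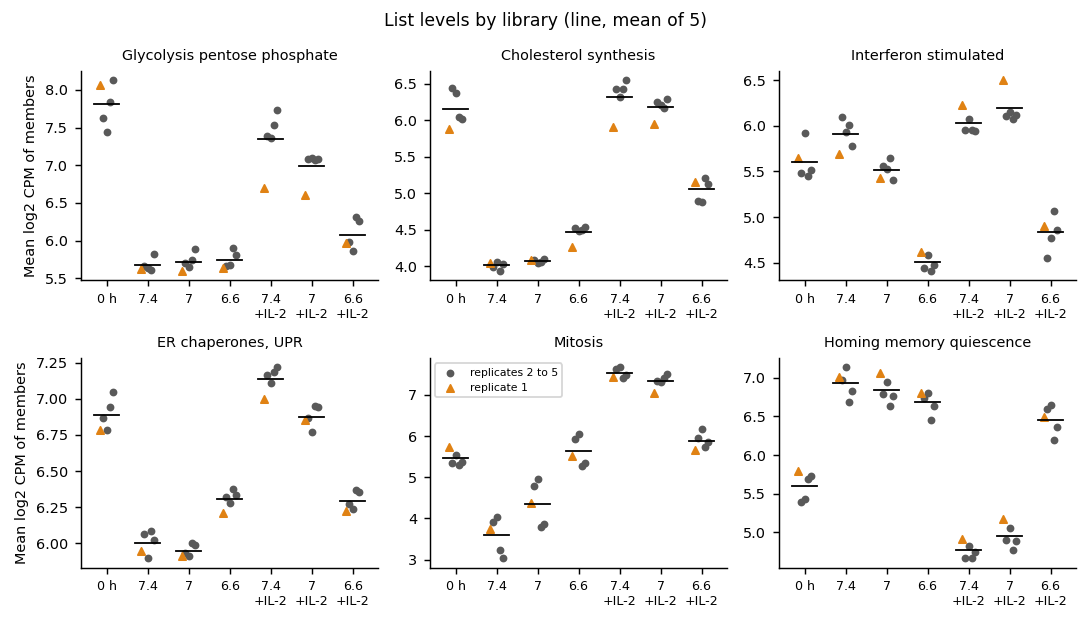
Mean log2 CPM over the members of 6 gene lists in each of the 35 libraries, by group, with an orange triangle for replicate 1, grey points for replicates 2 to 5 and a line at the mean of 5. Replicate 1 lies lowest for glycolysis and sterol synthesis and highest for interferon-stimulated genes at pH 7.4 with IL-2.

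The levels place the acid group among the others. The mean log2 CPM over homing, memory and quiescence genes was 4.76 ± 0.11 for pH 7.4 and 6.46 ± 0.19 for pH 6.6, both with IL-2 (SD, n = 5). It was 6.93 ± 0.17 at pH 7.4 without IL-2 and 5.60 ± 0.18 at 0 h. For single genes, S1pr1 was at 153 ± 41 CPM at pH 7.4 without IL-2 against 136 ± 38.5 CPM at pH 6.6 with it (SD, n = 5), a difference smaller than either SD. Gzmb was at 124 ± 52.1 CPM without IL-2 at pH 7.4, at 7958 ± 1061 CPM at 0 h and at 845 ± 323 CPM at pH 6.6 with IL-2 (SD, n = 5). The acid group thus lay between the groups with and without IL-2 for Gzmb, and Il7r was far lower at pH 6.6 with IL-2, at 6.28 ± 2.47 CPM, than at pH 7.4 without it, at 92.4 ± 11.7 CPM (SD, n = 5). These levels are given side by side and were not tested.

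At pH 7 with IL-2, a milder acidity that shares its pH 7.4 control libraries with the comparison above, the list medians were small. The homing, memory and quiescence list had 0.23, ribosome biogenesis -0.37, serine and one-carbon metabolism -0.37, glycolysis -0.42, S phase and replication -0.14 and interferon-stimulated genes 0.18. Gzmb was at 6228, 5184, 4461, 6494 and 6091 CPM in replicates 1 to 5 at pH 7, and Tfrc at 497, 522, 475, 498 and 575 CPM. Gzmb at pH 7 overlapped neither group, and for both genes pH 7 lay between pH 7.4 and pH 6.6.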

How the data were processed

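RNA of the OT-I CTLs was sequenced as single reads from stranded libraries of polyadenylated RNA. The deposited values are raw read counts per gene, 1 table per library. The submitters' processing notes name cutadapt 1.8, STAR 2.5.2b, HTSeq 0.6.1 and the build GRCm38, and the strand setting of the counting is not given in the sources used here. Rows for reads outside genes (3.91% to 8.83% in the 10 libraries compared), ambiguous reads and reads with several matches were kept out of library sizes and tests. Totals on genes over the 35 libraries were 16721319 to 34033340 (median 24730020). Gene identifiers were paired with symbols of GENCODE M21 for 48349 of 48709 genes.

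Groups came from the sample labels. Counts of all 35 libraries, 5 in each of 7 groups, were fitted with edgeR 4.0.16 (R 4.3.3), with TMM scaling, filterByExpr at a least count of 10, the replicate number as a block and a robust quasi-likelihood test, and p-values were adjusted over 13819 genes by Benjamini and Hochberg's method with a threshold of 0.05. The labels give replicate numbers but not what a number shares, and the numbers were used as a block. Deviations from the group means of same-numbered libraries in the groups compared correlated in 5 of 5 pairs, with r from 0.198 to 0.416, while 20 pairs of other numbers had a median r of -0.074. No libraries of a group agreed within sampling noise. CPM used TMM-adjusted library sizes, with a prior count of 2 on the log2 scale.

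The 59 gene lists and their members were chosen with earlier results of these data known. Named genes were a fixed set, the 10 largest rises and falls of a single sign in 5 pairs whose log2 CPM averaged 3 or more, and in each list up to 3 genes in its leading direction and 2 in the other. Members whose promoters are shown and Atp6v1g2 were added after their values were seen. Some genes the rule takes are not reported here. Alternatives were RLE, total count and upper quartile scaling, DESeq2 1.42.0, looser and stricter filters, a fit of only the groups compared, no block, each replicate left out and a least fold change of 2. The scripts were tested on simulated counts. Promoters came from RefSeq tables for GRCm38.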

Additional observations from a re-analysis of the deposited data

Results flagged for a closer look

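Of 470 sets of 5 libraries, 1 for each named gene and group compared, 21 held a library whose gap to the nearest other was more than 0.71 of the range, Dixon's limit for 5 values, which chance passes in about 1 of 20 sets. At pH 7.4 with IL-2 there were 14 such sets, and in 11 of them the library was replicate 1. That library was lowest for Itgb3 (33.7 CPM, others 66.1 to 78.4), BC035044 (41.9, others 52.1 to 54.8), Ak4 (10.1, others 45 to 74.3), Slc16a3 (26.6, others 143 to 227), Sqle (127, others 203 to 223), Hmgcs1 (209.8, others 351 to 390.1) and Gusb (76.7, others 82.4 to 83.3). It was highest for Bid (37.8, others 31.6 to 32.6), Prdx6 (341, others 265 to 282), Iigp1 (1059, others 525 to 606) and Usp18 (55.4, others 37.4 to 41.6). The other sets were Bend4 with replicate 2 highest (20.7 CPM), Slc7a5 with replicate 3 lowest (266 CPM) and Fbxl5 with replicate 4 lowest (55.1 CPM).

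At pH 6.6 with IL-2, 7 sets held such a library. Replicate 1 was lowest for Coq8a (27.2 CPM, others 65.8 to 75.8) and Rpl15 (15.1 CPM) and highest for mt-Nd2 (356 CPM). Replicate 2 was lowest for BC035044 (2.24 CPM) and highest for Bbc3 (91.7 CPM) and Ern1 (76.2 CPM), and replicate 4 was lowest for Klf2 (10.2 CPM, others 16.6 to 18).

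Among 118 sets of list means, 6 had a library past the same limit. On the mean log2 CPM scale replicate 1 at pH 6.6 was lowest for p53 targets (5.66, others 6.08 to 6.17) and highest for chemokine receptors and integrins (6.56), and replicate 1 at pH 7.4 was highest for circadian genes (3.41). Replicate 5 was highest for translation factors at pH 6.6 (7.37) and for pyruvate and TCA genes (6.43) and fatty acid oxidation (5.66) at pH 7.4.

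The effect of pH 6.6 differed between CTLs with and without IL-2 in the 20 genes with the largest named changes, by the interaction term of edgeR's quasi-likelihood fit, which also passed for 34.3% of all genes in the positive and 32.8% in the negative direction. These 20 were chosen on the effect with IL-2, a term of the interaction, so their direction is not independent of the choice. On the log2 scale the interaction was 3.27 for Coq8a, 3.42 for Klhl24, 1.19 for Bend4, 3.50 for Ikzf2, 3.46 for Bcl6, 1.74 for Tnfaip3, 3.99 for Arl5c, 2.77 for Tsc22d3, 3.08 for Fbxo32 and 3.65 for Dtx4. It was -2.54 for Nefh, -2.85 for Shmt1, -2.49 for Sdf2l1, -4.42 for Bcat1, -2.36 for Gcat, -3.91 for BC035044, -4.25 for Fabp5, -2.01 for Tpst1, -4.05 for Ak4 and -3.07 for Srm.

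In 15 lists the median was below 0 in 5 of 5 pairs with IL-2 and above 0 in 5 of 5 pairs without it, a difference that was not tested at the level of the list. In these lists the mean level at pH 7.4 was higher with IL-2 than without it, so the changes start from unlike levels. The median log2 fold change without IL-2 was 2.06 for mitosis, 0.71 for S phase and replication, 0.63 for sterol synthesis, 0.61 for STAT5 targets, 0.39 for ATF4 targets, 0.33 for cytosolic chaperones, 0.33 for nuclear transport, 0.30 for translation factors and 0.30 for the endoplasmic reticulum. It was 0.27 for the respiratory chain, 0.23 for the proteasome, 0.19 for pyruvate and the TCA cycle, 0.19 for nucleotide synthesis, 0.17 for splicing and 0.13 for glutamine, glutamate and proline. Reads outside genes, which no comparison used, had a median share of 7.86% at pH 6.6 with IL-2 against 4.33% at pH 7.4 with IL-2.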

How the results depend on the processing

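With a change of at least 2-fold required, 4753 genes in place of 10539 changed, 2134 of them higher and 2619 lower. This alternative was applied to these counts alone and not to named genes. Some of those changed by less, such as Il2ra (log2FC -0.61) and Il2rb (log2FC -0.79). Leaving out 1 replicate number in turn gave 9944 to 10313 changed genes, 4550 to 5076 higher and 5001 to 5534 lower, and 8420 to 8951 genes with an interaction, of which 4110 to 4996 were positive and 3749 to 4443 negative. Replicates were paired by number in the fit, and with no replicate block 10083 genes changed (4647 higher and 5436 lower) and 8703 had an interaction, which changed the call of no named gene. The other alternatives gave 8730 (stricter filter) to 10822 (looser filter) changed genes. Upper quartile scaling moved the median of all genes from -0.07 to 0.07 and the share of calls that were higher from 46.4% to 53%. Of 235 named genes, 234 kept their side of the threshold under every one of the 13 alternatives that tested them (Tnfrsf8, Shmt1, Bcat1, Orc1, Car12, Ifit1 and Derl3 were under the stricter filter and had 12), and the exception, Stat5a, is given above. Those that passed kept their direction, while Il2rg and Cish, which did not pass, changed sign under some alternatives. The sign of the median held in 54 of 59 lists. It changed under some alternatives for effector transcription factors, inhibitory receptors, chemokine receptors and integrins, lysosomal genes and iron genes, whose medians were near 0. What moved these was not tested. Genes at a few CPM, such as Il7r, rest on fewer counts, and a list of many members with shared sequence, such as the ribosomal proteins, is limited by reads that were not counted.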

Other observations

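Some lists were compared in less depth above. In the list of chemokine receptors and integrins 9 of 22 genes were higher and 8 lower, and the interaction with IL-2 was positive for 11 and negative for 4. In the lysosomal list, where 14 of 37 genes were higher and 11 lower with IL-2, 18 had a positive interaction and 3 a negative one. Ribosomal proteins, of which 42 of 79 were higher with IL-2, had 1 positive interaction and 28 negative ones, and their median without IL-2 was 0.46. In the list of cytokine receptors outside the IL-2 receptor, 9 of 20 were higher and 4 lower.

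Promoter motifs of other lists were counted in the same windows, again by gene. The E-box CACGTG was in 10 of 51 (19.6%) of the ribosome biogenesis genes and 12 of 30 (40%) of the lysosomal ones, against 11.6% of all. Glycolysis genes had it in 4 of 27 (14.8%). CCAAT was in 16 of 17 (94.1%) of the sterol synthesis genes against 42.8% of all. It was also in 33 of 42 (78.6%) of the mitosis genes and 26 of 34 (76.5%) of the endoplasmic reticulum genes. The core of the sterol element, TCAC and CCAC with 1 base between, was in 1 of 17 (5.88%) of the sterol synthesis genes. Its share over all genes was 1.34%. The STAT letters TTC and GAA with 3 bases between were in 5 of 13 (38.5%) of the STAT5 target genes against 8.21% of all. The share for TGACGTCA, the cyclic AMP element, was 1 of 25 (4%) in the cyclic AMP and immediate early list and 3.63% of all.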
